A study of Homo sapiens with 6 samples.

Results

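The genes described here are 9 classical targets of serum response factor (SRF) and of the Yes-associated protein (YAP), followed after ionizing radiation (IR) in U-2 OS, a line of human osteosarcoma cells. They were taken as a list of symbols, drawn up with earlier results of these data known, and all 9 were found among the 21447 genes of the bulk RNA-seq. ACTA2, ACTG2, TAGLN and CNN1 are the 4 SRF targets, and CCN1, CCN2, ANKRD1, THBS1 and AMOTL2 are the 5 YAP targets. The series compares 3 libraries of untreated cells with 3 libraries of cells that had received 4 Gy of IR 24 h before RNA extraction. Both groups were the same line, grown in DMEM with 10% fetal bovine serum, with no transgene or second agent named by the labels. The study's methods call the libraries of a group independent samples without saying whether these were separate cultures, so the P values measure the spread between these samples, which may be in part technical.

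SRF is a transcription factor that binds a short AT-rich element, the CArG box. With the myocardin-related cofactors MRTFA and MRTFB, which are freed when actin polymerizes, SRF drives genes of the contractile cytoskeleton, whereas with cofactors of the ELK family downstream of ERK it drives immediate early genes. YAP and its relative TAZ (encoded by WWTR1) bind no DNA themselves and act through TEAD factors, which recognize the hexamer CATTCC, and the Hippo kinases LATS1 and LATS2 keep both cofactors out of the nucleus. Because actin tension and adhesion feed into both pathways, their targets are commonly read side by side as a measure of the state of the cytoskeleton.

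Depth ranged from 18573309 to 22953834 estimated counts in 5 libraries and was 45308792 in IR replicate 3, whose values therefore carry the smallest counting error. That library also differed most from its own group, with a chi-square per gene of 29.1 and 32.2 against IR replicates 1 and 2. The other pairs of replicates gave 3.44 to 9.15, and the part of depth in this difference was not tested. Levels are given either as CPM, the count of a gene over its library total after TMM scaling, which compares a gene between libraries, or as the deposited TPM summed per gene, which is per transcript length and compares genes with each other. Fold changes are IR against untreated on the log2 scale, from edgeR's quasi-likelihood test fitted to 14322 genes, and a gene is called at a Benjamini–Hochberg adjusted P under 0.05. The median log2 fold change of all tested genes was 0.01. Among the osteoblast lineage markers, SPARC (1918 TPM, mean of the 6 libraries) and COL1A1 (547 TPM) were abundant, while COL1A2 was at 0.568 TPM. SP7, which encodes the osteoblast factor osterix, was at 0 in every library, and IBSP and BGLAP never exceeded 11 counts. Of the 5 markers of that list that were tested, the weakly expressed ALPL (1.31 TPM) was called higher (log2 fold change 1.09) and RUNX2 lower (−0.36). RUNX2 was not called in 6 of 13 alternative ways of processing, with −0.10 under an offset for the effective length of transcripts. Of all tested genes 15.5% were called higher and 14.5% lower.

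Between them the target genes moved unevenly after IR. ACTA2 rose by the most, CCN1, CCN2 and ANKRD1 rose by less, and TAGLN, CNN1, THBS1 and AMOTL2 did not pass the test. ACTG2 was close to 0 in every library and failed the filter on low counts. Thus 4 of the 8 tested genes were called higher, against a background of 15.5% of all tested genes called higher. In edgeR 0 of the 8 were called lower, where the background was 14.5%, and this was also 0 at an unadjusted P under 0.05 and 0 in the DESeq2 Wald test. The background called in either direction was 30.1%. For the same 4 of the 8 genes the 3 IR libraries lay apart from the 3 untreated libraries. That share is near the 47.1% of all tested genes whose groups did not overlap. In such a bulk measurement, a change in the share of cells that express a gene and a change in its RNA per cell cannot be told apart.

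**Figure D1:**
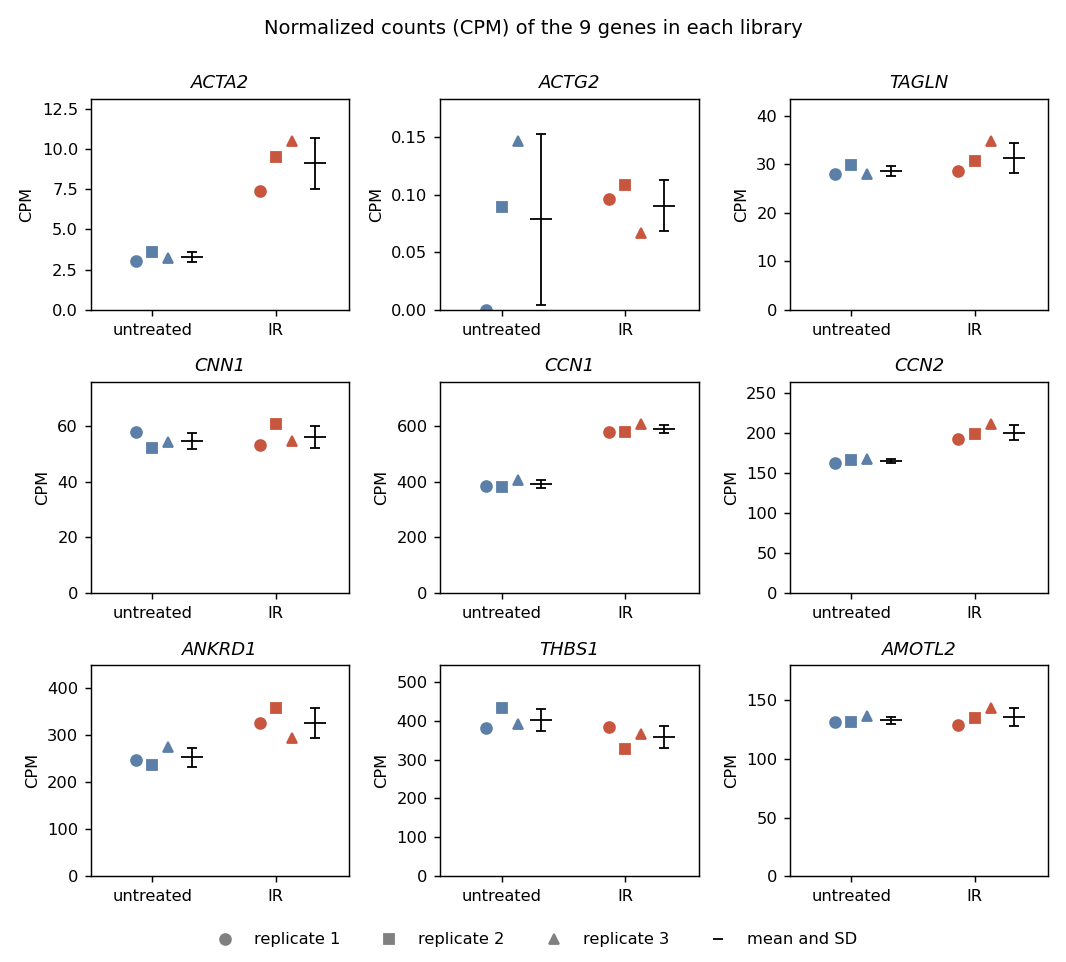
TMM-scaled CPM (vertical axes, linear, each from 0) of the 9 target genes in the 3 untreated libraries (blue) and the 3 IR libraries (red), with marker shapes for the replicate numbers and a bar for the mean and SD of each group. For ACTA2, CCN1, CCN2 and ANKRD1 every IR library lies above every untreated library; for the other genes the groups overlap.

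On the scale per length the genes covered a wide range. In untreated cells, ANKRD1 (292 ± 26.5 TPM, mean ± SD, n = 3 here and below) and CCN1 (288 ± 13.2 TPM) were the most abundant and overlapped each other. They were followed by THBS1 at 151 ± 10.9 TPM and CCN2 at 93.2 ± 3.14 TPM, which were apart from each other and from their neighbours. CNN1 (58.4 ± 13.6 TPM) and TAGLN (48.0 ± 4.42 TPM) overlapped, and AMOTL2 was below both at 34.9 ± 0.902 TPM. ACTA2 stood at 3.99 ± 0.612 TPM, and ACTG2 was lowest at 0.0635 ± 0.0586 TPM. Summed over all annotated transcripts, YAP targets thus took the 4 highest places and the smooth muscle actins the 2 lowest. The place of THBS1 rests on ENST00000560894, a retained-intron transcript of 537 bases, with 74.5, 81.3 and 75.0 TPM in untreated libraries. Its coding transcript ENST00000260356 alone held 59.7, 68.9 and 61.2 TPM there, below CCN2 and overlapping CNN1. ENST00000560894 held 66.8, 59.3 and 13.5 TPM in the IR libraries, which bears on the place of THBS1 there. The place of CCN1 rests largely on ENST00000675083, of the nonsense-mediated decay class, with 206, 191 and 200 TPM in untreated libraries. Its principal coding transcript ENST00000451137 alone held 16.3, 18.6 and 16.3 TPM there, below AMOTL2. In IR libraries that coding transcript held 65.8, 22.4 and 56.8 TPM, below ANKRD1. In IR libraries CCN1 (428 ± 50.2 TPM) lay above ANKRD1 (360 ± 19.9 TPM) without overlap, whereas CCN2 (114 ± 16.2 TPM) and THBS1 (113 ± 24.0 TPM) now overlapped, as did TAGLN (59.6 ± 17.3 TPM) and CNN1 (55.6 ± 3.29 TPM). AMOTL2, at 37.1 ± 6.16 TPM, ACTA2, at 10.1 ± 2.36 TPM, and ACTG2, at 0.136 ± 0.0687 TPM, kept the 3 lowest places, each apart from the next.

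The SRF targets encode proteins of smooth muscle and of contractile stress fibres. ACTA2 encodes α-smooth muscle actin and lies on the minus strand of chromosome 10 from 88935074 to 88991339 (GRCh38). The untreated libraries held 3.02, 3.61 and 3.23 CPM of ACTA2, and the IR libraries 7.36, 9.48 and 10.5 CPM. All IR libraries were thus above all untreated ones, although the gene was weakly expressed, with 55 to 81 counts per untreated library and 152 to 473 counts per IR library. ACTA2 was 2.77-fold higher after IR (95% interval 2.13 to 3.62), or 1.47 on the log2 scale (standard error 0.17, adjusted P = 5.95e-04, edgeR quasi-likelihood test). It ranked 47 of 14322 by log2 fold change. An exact two-sided permutation test of its 6 libraries gave P = 0.1, the smallest value that 3 libraries against 3 allow.

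Among protein-coding genes, ACTA2 shares exon sequence with FAS, the gene of the CD95 death receptor, which is read from the opposite strand, and a pseudoaligner could place reads of one gene on the other. The overlap lies in 2 of the 6 annotated ACTA2 transcripts, ENST00000458159 and ENST00000415557, whose first exons start far upstream and which share 311 and 385 bases with FAS exons. In all, 6.25% of the 31-base words of ACTA2 transcripts also occur in FAS, and whether the reads were counted by strand is not given in the sources used here. The principal transcript, ENST00000224784 (9 exons, 1349 bases), shares no base with FAS. It carried 60.8% of the counts of ACTA2, averaged over the libraries, but 40.9% in untreated replicate 3. Its estimated counts were 38.4, 47.2 and 27.1 in untreated libraries and 90.5, 120 and 318 in IR libraries. Scaled to depth these were 2.11, 2.11 and 1.33 CPM against 4.38, 6.55 and 7.05 CPM, again without overlap. The retained-intron transcript ENST00000488967 also shares no base with FAS and carried 37.3% of the counts in untreated replicate 3. It held 0.413, 0.683 and 1.21 CPM in untreated and 0.684, 0.734 and 1.20 CPM in IR libraries, with overlapping groups.

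With the pair of shared transcripts left out, the log2 fold change of ACTA2 was 1.40 (standard error 0.20, adjusted P = 0.00135, edgeR), with 2.52, 2.79 and 2.54 CPM in untreated and 5.07, 7.34 and 8.26 CPM in IR libraries. The pair on its own gave 1.72 (standard error 0.27, adjusted P = 0.00174), with 0.507 to 0.825 CPM in untreated and 2.13 to 2.29 CPM in IR libraries. FAS itself was higher after IR, from 17.5, 12.1 and 16.1 CPM to 34.8, 36.8 and 37.9 CPM, which is 1.27 on the log2 scale (standard error 0.12, adjusted P = 2.53e-04, edgeR). FAS is a well-known p53 target. STAMBPL1, which overlaps FAS but no exon of ACTA2, stayed between 13.5 and 15.2 CPM in the 6 libraries, with a log2 fold change of 0.00 (adjusted P = 0.987). The rise of ACTA2 without the transcripts shared with FAS was thus close to that of the whole gene. Most counts of the gene lie in the transcripts left in, so the 2 values are not independent. The division of counts between transcripts is itself an estimate, and the part of FAS reads in ACTA2 was not tested. Exons of ACTA2, those of the principal transcript included, also overlap the opposite-strand RNA ACTA2-AS1, and the gene further overlaps the non-coding ENSG00000286116 on its own strand. Neither was analysed here, and their part in the value of ACTA2 was not tested.

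**Figure D2:**
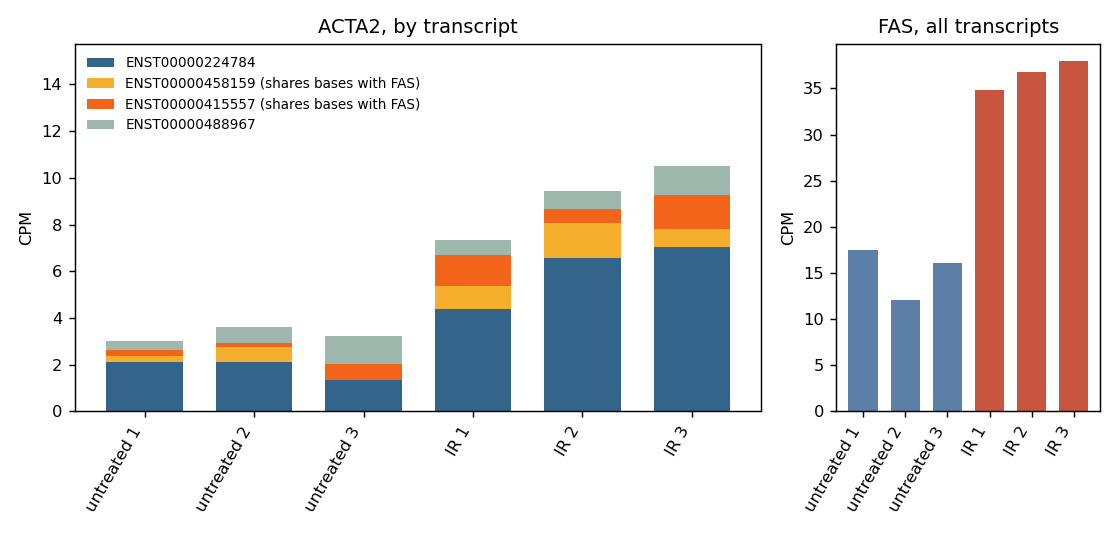
Left, TMM-scaled CPM of ACTA2 in each library, stacked by transcript, with the 2 transcripts that share exon bases with FAS in yellow and orange and ENST00000224784, which shares none, in dark blue. Right, CPM of FAS, all transcripts summed, in the untreated (blue) and IR (red) libraries; both vertical axes start at 0 and differ in scale.

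ACTG2 encodes γ-smooth muscle actin of visceral muscle and lies on chromosome 2 from 73892314 to 73919865. It had 0, 2 and 3 counts in untreated libraries and 2, 2 and 3 counts in IR libraries, at or under the 3 counts taken here as the floor of detection, so no fold is given. At this depth no difference in ACTG2 was detectable.

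TAGLN and CNN1 encode the actin-binding proteins transgelin (SM22α) and calponin 1, both markers of smooth muscle. TAGLN, on chromosome 11 from 117199370 to 117207464, held 28.0, 29.8 and 28.0 CPM in untreated and 28.7, 30.7 and 34.8 CPM in IR libraries. The groups overlapped, with IR replicate 3 as the highest library. The log2 fold change was 0.14 (95% interval −0.06 to 0.33, adjusted P = 0.259, edgeR) and the exact permutation test gave P = 0.2. Without IR replicate 3 it was 0.051, and with the length offset 0.36, neither called. TAGLN counts are uncertain, since 46.3% of the 31-base words of its transcripts also occur in other genes. ENSG00000280143, on the same strand, holds 36.9% of the words, and PCSK7, a protease gene on the opposite strand, holds 32.1%. ENSG00000280143 reached at most 0.758 CPM in any library. PCSK7 itself held 54.8 CPM in IR replicate 3 and 26.1 to 39.1 CPM in the other 5 libraries. The part of either gene in the value of TAGLN was not tested.

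CNN1, on chromosome 19 from 11538767 to 11550323, shares no exon with another gene. It held 57.6, 52.1 and 54.1 CPM in untreated and 53.1, 60.5 and 54.4 CPM in IR libraries, with overlapping groups. Its log2 fold change of 0.04 (95% interval −0.13 to 0.20, adjusted P = 0.752, edgeR) leaves room for a fold between 0.912 and 1.15, the bounds of that interval. The exact permutation test gave P = 0.6. The direction of both genes depended on the correction for base composition. TAGLN and CNN1 are GC-rich, at 58.5% and 58.9%, and of the tested genes within 2 percentage points of their GC content 27.8% and 29.0% were called higher, with medians of 0.19 and 0.20. Once the GC trend of each library was removed, TAGLN stood at −0.06 (adjusted P = 0.575) and CNN1 at −0.16 (adjusted P = 0.151).

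Matches to the CArG box were searched on both strands of the promoters listed by RefSeq (GRCh38.p14), from 250 bases before to 50 bases after each start. Promoters were listed for 7 of the 9 genes, not for TAGLN or CCN1. The CArG box occurred in 1.29% of all 35116 promoters, and 6.94% held a version with 1 mismatch. Here a mismatch is 1 G or C among the 6 AT positions. Boxes that differ in the outer CC or GG were not searched for. ACTG2 carried 2 exact boxes within the 77 bases of chr2:73892883-73892959 (plus strand), and only 0.0313% of all promoters held 2 or more. The promoter of the principal ACTA2 transcript carried 2 boxes with 1 mismatch each, at chr10:88952870-88952909 and chr10:88952820-88952859 (minus strand), whereas the CNN1 promoter held neither version in this window. Of the SRF genes with a listed promoter, the one with exact boxes was thus the one nearly silent in these cells. The stretches are printed 5′ to 3′ on the strand of the gene, with the boxes in capitals, so that the 2 actin promoters can be set side by side.
ACTG2: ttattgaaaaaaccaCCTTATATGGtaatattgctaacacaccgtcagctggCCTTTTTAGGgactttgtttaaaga
ACTA2, box farther from the start: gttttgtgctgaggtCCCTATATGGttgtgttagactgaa
ACTA2, box nearer to the start: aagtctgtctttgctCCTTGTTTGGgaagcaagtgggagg

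The first bases of the boxes lay 110 and 73 bases upstream of the ACTG2 start and 121 and 71 bases upstream of the ACTA2 start. A match of letters is a description of the sequence and does not show that SRF was bound there.

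Among the YAP targets, CCN1, CCN2 and THBS1 encode secreted proteins of the matrix. CCN1 (CYR61), on chromosome 1 from 85580761 to 85584589, is a matricellular protein that binds integrins. It held 384, 380 and 406 CPM in untreated libraries and 578, 579 and 605 CPM in IR libraries. The groups were far apart relative to their spread, with 6992 or more counts behind every value. CCN1 was 1.51-fold higher after IR (95% interval 1.37 to 1.65), or 0.59 on the log2 scale (standard error 0.06, adjusted P = 3.08e-04, edgeR), with an exact permutation P = 0.1. No 31-base word of CCN1 occurs in another gene. Most of its counts were assigned to ENST00000675083, a transcript of the nonsense-mediated decay class, which held 240 to 262 CPM in untreated and 318 to 385 CPM in IR libraries. The principal coding transcript, ENST00000451137, held 28.5, 32.3 and 27.7 CPM in untreated and 115, 42.4 and 88.1 CPM in IR libraries. Both therefore lay higher in every IR library, but the IR libraries differed among themselves in how the counts were divided, and the sum over transcripts was steadier than either.

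CCN2 (CTGF), a relative of CCN1 known for its role in fibrosis, lies on chromosome 6 from 131948176 to 131951372. Its single annotated transcript held 162, 166 and 168 CPM in untreated and 193, 199 and 211 CPM in IR libraries. Every IR library lay above every untreated one. The difference was 1.22-fold (95% interval 1.10 to 1.34), or 0.28 on the log2 scale (standard error 0.06, adjusted P = 0.00874, edgeR), with an exact permutation P = 0.1. The call was lost without untreated replicate 1 (0.27, adjusted P = 0.0507) and with an offset for effective length (0.33, adjusted P = 0.0560), and the adjusted P over all 13 alternatives ran from 9.27e-04 to 0.0560.

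ANKRD1, an ankyrin repeat protein of the nucleus and sarcomere that responds to stretch, lies on chromosome 10 from 90912096 to 90921087 and also has a single transcript. It held 248, 237 and 276 CPM in untreated and 327, 359 and 296 CPM in IR libraries. The groups did not overlap, although untreated replicate 3 and IR replicate 3 came close to each other. ANKRD1 was 1.29-fold higher (95% interval 1.13 to 1.47), or 0.36 on the log2 scale (standard error 0.09, adjusted P = 0.0114, edgeR), with an exact permutation P = 0.1. At 42.1% GC, it stood among genes that on the whole went the other way, since genes within 2 percentage points of that content had a median of −0.12 and 5.10% of them were called higher. Removal of the GC trend gave 0.49. The call was lost without untreated replicate 1 (0.35, adjusted P = 0.0513), without untreated replicate 2 (0.32, adjusted P = 0.0550) and with the length offset (0.36, adjusted P = 0.0712), and the adjusted P over all 13 alternatives ran from 4.02e-04 to 0.0712.

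THBS1 encodes thrombospondin 1, a large adhesive glycoprotein that binds CD47 and activates TGFβ, and lies on chromosome 15 from 39581079 to 39599466. It held 380, 433 and 390 CPM in untreated and 383, 328 and 366 CPM in IR libraries. The groups overlapped, and THBS1 was the only one of the 8 tested genes with a negative log2 fold change, −0.16 (95% interval −0.34 to 0.01, adjusted P = 0.147, edgeR; exact permutation P = 0.2). Its value ran from −0.088 once the GC trend was removed to −0.37 with the length offset, and was −0.10 without untreated replicate 2 or without IR replicate 2, in no case called. The upper bound of the interval above lies below the lower bounds of both CCN1 (0.46) and CCN2 (0.14).

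AMOTL2, of the angiomotin family, is both a target of YAP and a scaffold that holds YAP at cell junctions. The gene lies on chromosome 3 from 134355347 to 134375479. It held 131, 131 and 136 CPM in untreated and 128, 135 and 143 CPM in IR libraries, with overlapping groups. Its log2 fold change of 0.03 (95% interval −0.11 to 0.18, adjusted P = 0.735, edgeR; exact permutation P = 0.7) became −0.12 (adjusted P = 0.141) once the GC trend was removed, so its direction is not defined by these data.

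**Figure D3:**
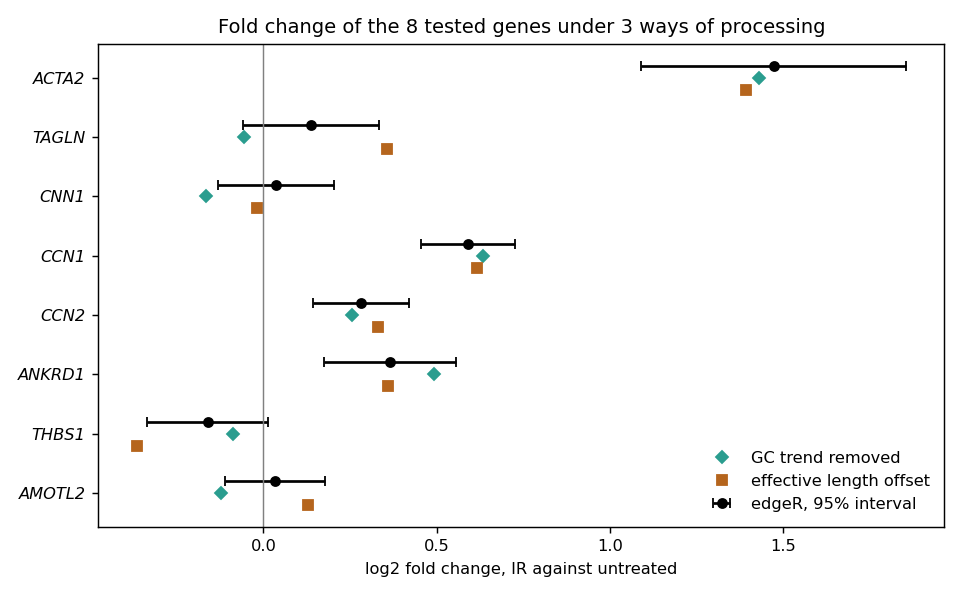
Log2 fold change (horizontal axis, IR against untreated) of the 8 tested target genes, with the edgeR estimate and its 95% interval in black, the value after removal of the GC trend as a green diamond and the value with an effective length offset as a brown square. ACTA2, CCN1, CCN2 and ANKRD1 lie to the right of 0 under each of the 3, whereas TAGLN, CNN1 and AMOTL2 change side and THBS1 lies to the left.

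The TEAD hexamer CATTCC, on either strand, occurred in 14.0% of all promoters. It was found in a promoter of each of the 4 YAP targets that have one listed. CCN2 carried 3 copies, ANKRD1 2, and THBS1 and the downstream promoter of AMOTL2 1 each, while 1.37% of all promoters held 2 or more. The principal ACTA2 promoter also carried 1 copy. The stretches lie at chr6:131951521-131951556 and chr6:131951447-131951491 (CCN2), chr10:90921287-90921322 and chr10:90921195-90921230 (ANKRD1), chr15:39581018-39581053 (THBS1), chr3:134374496-134374531 (AMOTL2) and chr10:88952936-88952971 (ACTA2). The THBS1 stretch is on the plus strand and the others on the minus strand. They are printed 5′ to 3′ on the strand of the gene, with the hexamer or its complement GGAATG in capitals, to set the genes that rose beside those that did not.
CCN2, farther from the start: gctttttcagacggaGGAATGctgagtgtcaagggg
CCN2, nearer to the start: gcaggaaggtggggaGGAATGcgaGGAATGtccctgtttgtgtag
ANKRD1, farther from the start: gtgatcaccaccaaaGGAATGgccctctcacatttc
ANKRD1, nearer to the start: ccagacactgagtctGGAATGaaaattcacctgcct
THBS1: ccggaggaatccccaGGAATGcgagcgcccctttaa
AMOTL2: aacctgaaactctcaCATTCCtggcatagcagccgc
ACTA2: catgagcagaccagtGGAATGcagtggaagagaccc

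CCN2 and ANKRD1, which rose, had more than 1 hexamer, and THBS1 and AMOTL2, which were not called, had 1. ACTA2, which rose by the most, also had 1, and CCN1 had no listed promoter. Only 4 YAP targets could be compared, and no test was made of this arrangement. In CCN2 the 2 nearer copies are separated by 3 bases, and in ANKRD1 the first bases of the copies lie 220 and 128 bases upstream of the start.

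**Figure D4:**
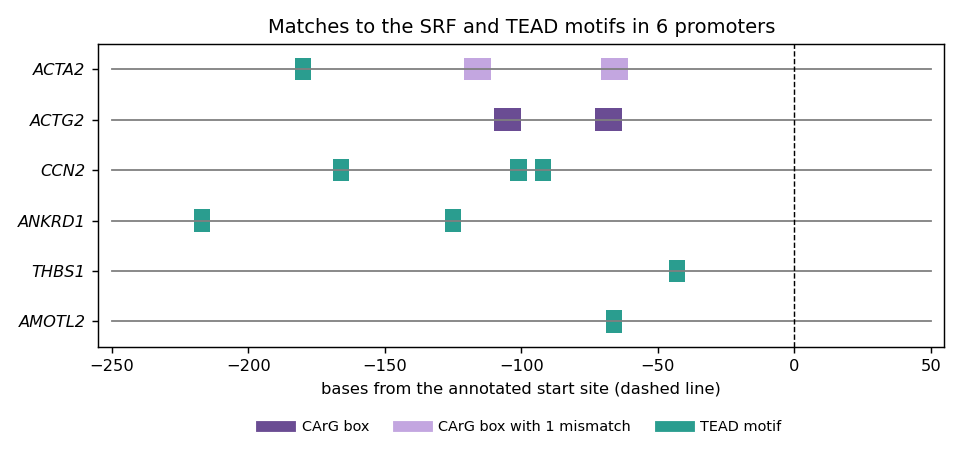
Position of motif matches in 6 promoters, in bases from the annotated start (dashed line), with CArG boxes in dark purple, CArG boxes with 1 mismatch in light purple and the TEAD hexamer in green. ACTG2 and ACTA2 each carry a pair of boxes at like distances, and the hexamers of CCN2, ANKRD1, THBS1 and AMOTL2 all lie upstream of the start.

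The wider target lists of both pathways did not share one direction. Of 29 other SRF and MRTF targets, 28 were tested, of which 6 were called higher and 3 lower, with a median log2 fold change of 0.05 that became −0.08 once the GC trend was removed. Calls in either direction thus covered 9 of 28 genes, near the 30.1% of all tested genes. FHL2, a LIM-domain cofactor that binds SRF, rose from 77.9, 78.5 and 74.5 CPM to 149, 166 and 212 CPM (1.20, adjusted P = 2.62e-04, edgeR). MYLK, the kinase of myosin light chains, followed at 0.57, TGFB1I1 (Hic-5) at 0.60, PDLIM7 at 0.39 and LIMA1 at 0.25. Among those called lower were TPM1, an abundant tropomyosin of actin filaments, at −0.53, the weakly expressed LMOD1 (leiomodin) at −2.19, and PDLIM5 at −0.26. ACTB, with 3034 TPM the most abundant gene of the list (−0.10, adjusted P = 0.399, edgeR), and TAGLN2 (0.18, adjusted P = 0.110) were not called. PDLIM7 (0.02) and PDLIM5 (−0.16) lost their calls once the GC trend was removed, and LMOD1 lost its call without untreated replicate 2. With the length offset MYLK (0.41), TGFB1I1 (0.44), PDLIM7 (0.39) and LIMA1 (0.14) were no longer called. PDLIM5 kept its call in only 6 of 13 alternatives and LIMA1 in 7 of 13.

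Of 23 other YAP and TEAD targets, 21 were tested, of which 1 was called higher and 2 lower, with a median of 0.02. AREG, the EGF receptor ligand amphiregulin, rose from 8.24, 8.92 and 8.06 CPM to 17.3, 20.3 and 16.8 CPM (1.10, adjusted P = 2.82e-04, edgeR). PTPN14, a phosphatase that restrains YAP, fell from 215, 226 and 198 CPM to 133, 125 and 116 CPM (−0.77, adjusted P = 2.71e-04), and GADD45B was also called lower (−0.34), though not with the length offset (−0.23). The 3 most abundant genes of the list, CCDC80 (−0.02), TGFB2 (−0.14) and AXL (0.02), were not called. In this list 3 of 21 tested genes were thus called in either direction, beside 30.1% of all tested genes. The CArG box occurred in 23.4% of the 64 promoters listed for the other SRF targets, and CATTCC in 38.1% of the 21 listed for the other YAP targets.

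The immediate early genes of the ERK arm of SRF had a median of 0.40 (0.27 once the GC trend was removed). Of the 7, EGR1 (0.52, adjusted P = 0.00934, edgeR), a zinc finger factor, and FOSB (0.84, adjusted P = 0.0302) were called higher, while IER2 (0.40, adjusted P = 0.0532) and JUNB (0.26, adjusted P = 0.143) were not. Of all tested genes 15.5% were called higher. FOSB was weakly expressed, at 1.15 to 1.25 CPM in untreated and 1.88 to 2.72 CPM in IR libraries, and lost its call in 8 of 13 alternatives.

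Among transcripts of the SRF regulators more were called lower than higher. The activity of the proteins they encode was not measured. SRF itself held 61.6, 59.0 and 48.1 CPM in untreated and 49.5, 53.6 and 52.5 CPM in IR libraries, with overlapping groups and a log2 fold change of −0.12 (adjusted P = 0.370, edgeR), which was −0.38 (adjusted P = 0.0101) once the GC trend was removed. MRTFA was at −0.05 (adjusted P = 0.649), whereas MRTFB fell from 69.5, 80.6 and 64.1 CPM to 50.8, 46.1 and 44.9 CPM (−0.60, adjusted P = 0.00180). MYOCD, the cofactor of smooth muscle, was called lower from a low level, at 2.25, 3.12 and 3.27 CPM against 0.629, 0.436 and 0.421 CPM (−2.56, adjusted P = 4.98e-04). Altogether 1 of the 15 genes of SRF, its cofactors and regulators of actin was called higher and 5 lower, beside 15.5% and 14.5% of all tested genes, with a median of −0.12. The others called were ELK4 (−0.62) and the kinases ROCK1 (−0.49) and ROCK2 (−0.32), all lower, and RHOC (0.30), which was higher. RHOA (−0.16) and the actin regulator LIMK1 (0.18), both abundant, were not called. ROCK2 and RHOC lost their calls once the GC trend was removed (−0.14 and 0.09), and MRTFA was then called lower (−0.21).

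YAP1 held 125, 130 and 128 CPM in untreated and 122, 115 and 112 CPM in IR libraries, without overlap but with a log2 fold change of only −0.14 (adjusted P = 0.123, edgeR), which passed the test with the length offset (−0.35, adjusted P = 0.0386). WWTR1 (TAZ) was at −0.17 (adjusted P = 0.155). Of the TEAD factors, TEAD1 fell from 290, 307 and 267 CPM to 235, 210 and 205 CPM (−0.41, adjusted P = 0.00399), and TEAD2 (−0.05), TEAD3 (0.05) and TEAD4 (−0.03) were not called, although TEAD4 was called lower (−0.28) once the GC trend was removed. In the list of YAP, TEAD and Hippo genes, 22 of 23 were tested, 1 was called higher and 6 lower, and the median was −0.14. These 7 of 22 are near the 30.1% of all tested genes called in either direction, where 15.5% were higher and 14.5% lower. The genes called lower included AMOT (−0.68) and AMOTL1 (−0.36), the relatives of AMOTL2, the Hippo scaffold WWC2 (−0.45) and the kinase LATS1 (−0.52), of which LATS1 was not called with the length offset (−0.54). VGLL4, a competitor of YAP for TEAD, was the one called higher (0.20), a call lost in 11 of 13 alternatives. The abundant FRMD6 (0.01), NF2 (−0.01) and MOB1A (−0.17) were not called.

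**Figure D5:**
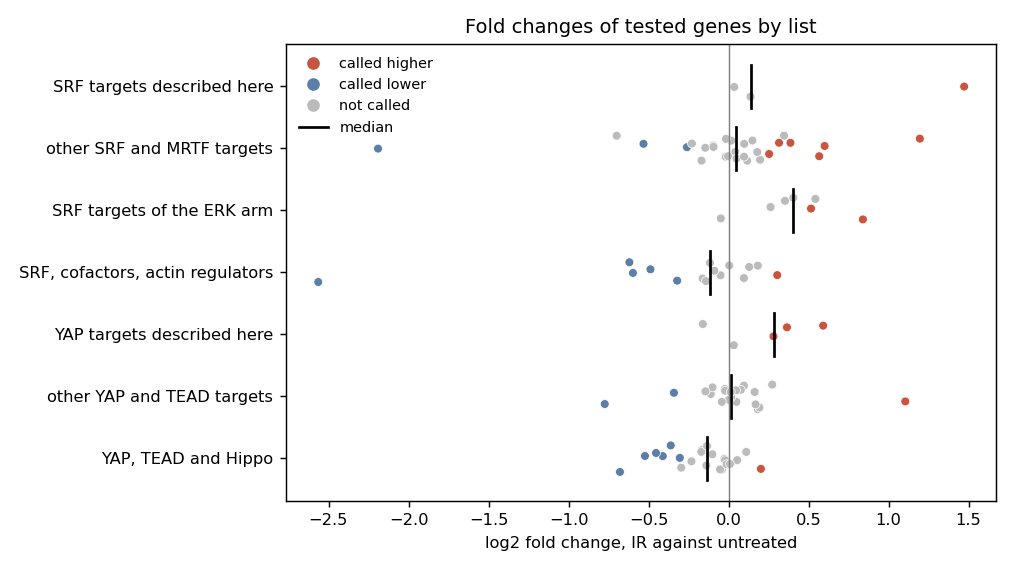
Log2 fold changes (horizontal axis, IR against untreated) of the tested genes of each list, in red where called higher, in blue where called lower and in grey where not called, with the median of each list as a black bar. The medians run from −0.14 for YAP, TEAD and Hippo genes to 0.40 for the ERK arm of SRF, and calls in both directions occur in the lists of other targets.

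Genes whose profile over the 6 libraries was nearest to that of each target were named by the root mean square distance between log2 CPM profiles, each centred on its mean. ACTA2 lay nearest to IL21R (0.11), FDXR (0.11) and CDKN1A (0.12), the gene of the CDK inhibitor p21. CCN1 lay nearest to CCND2, SMOX and FAM110B, and CCN2 to ABHD12, ABT1 and GPX4. ANKRD1 lay nearest to CCDC40, ACAT2 and CCDC90B. The nearest genes of TAGLN were SYMPK, NCS1 and UCK1, and those of CNN1 included TXNL4B and RAMAC. THBS1 lay nearest to SOGA1, IGF2R and PGBD4, and AMOTL2 to TMEM242, PARVA and MEMO1. These distances rest on 6 libraries of 2 groups and describe likeness of profile only.

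Since 3 of the SRF targets are also markers of smooth muscle, lists of markers were read beside them. Of 8 smooth muscle markers, ACTA2, CNN1 and TAGLN included, 7 were tested, of which ACTA2 was called higher and LMOD1 and MYOCD lower, beside 15.5% and 14.5% of all tested genes. Their summed level was 180 to 188 CPM in untreated and 189 to 206 CPM in IR libraries. MYH11, the defining myosin of smooth muscle, was at most 0.981 CPM and DES, which encodes desmin, at most 0.491 CPM. The 4 epithelial markers summed to 304 to 309 CPM in untreated and 369 to 449 CPM in IR libraries. KRT8 (0.40), KRT18 (0.42) and CDH1 (0.61) were called higher, beside 15.5% of all tested genes, and EPCAM (0.09, adjusted P = 0.614, edgeR) was not called. CDH1, at no more than 3.43 CPM, lost its call in 9 of 13 alternatives, and KRT8 lost its call with the length offset (0.27). Of the blood cell markers, CD3E and HBB were at 0 in every library, and the list summed to 1.27 to 1.76 CPM in untreated and 0.797 to 1.16 CPM in IR libraries. The 3 endothelial markers summed to 3.17 to 4.35 CPM in untreated and 3.39 to 5.12 CPM in IR libraries. The part of these markers in the values of the target genes was not tested.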

How the data were processed

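The 6 bulk RNA-seq libraries were grouped by their labels into untreated U-2 OS cells (n = 3) and cells 24 h after 4 Gy of IR (n = 3). The authors removed adaptors with fastp and used kallisto (version not given in the sources used here) to assign reads to transcripts of GENCODE release 37 (GRCh38). The deposited estimated counts per transcript are not normalized. The deposited TPM values include a scaling by the authors for effective length and for the total of the library. Because assignment between overlapping transcripts is an estimate, values of single transcripts are less certain than gene sums.

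Identifiers were matched to GENCODE release 44, which left out 2580 of 161171 transcripts. For each gene, estimated counts were added up and rounded. Genes that passed filterByExpr were tested with edgeR 4.0.16 (R 4.3.3, limma 3.58.1) by the quasi-likelihood method on TMM-scaled libraries, with treatment as the only term, Benjamini–Hochberg adjustment over all 14322 tested genes and a threshold of 0.05. Confidence intervals are at 95%. In a simulation, 200 of 14322 genes were changed, drawn from those above 1 CPM, and all genes were given a common dispersion. The test recovered 100% of those with a log2 change of 1 and 71% of those with 0.5, and it called 10 unchanged genes. In the data 30.1% of genes were called and IR replicate 3 differed from its group, so these figures may not hold for the data. Single genes were also tested by a two-sided exact permutation test, made for 8 genes.

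The target genes, the further lists and the rule for named genes (in each list up to 5 called genes of lowest P per direction and the 3 most abundant) were chosen with earlier results of these data known. Promoters are those of RefSeq (GRCh38.p14). Alternatives were other filters on low counts, size factors and the Wald test of DESeq2 1.42.0, a replicate block, removal of the GC trend, an effective length offset, each library left out in turn and, for ACTA2, sums with and without transcripts shared with FAS. No library was treated as a copy of another, since replicates differed by more than sampling noise (chi-square per gene at least 3.44). The file name of IR replicate 3 has an added mark whose meaning the sources do not explain. Some items that these rules select are not reported here.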

Additional observations from a re-analysis of the deposited data

How the results depend on the processing

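ACTA2 (15 alternatives, 1.35 to 1.72) and CCN1 (13 alternatives, 0.57 to 0.63) were called higher in all. The effective length offset left 837 genes called higher and 875 lower, 2 of the target genes higher, 2 of the other SRF targets higher and 1 of the other YAP targets lower, and CCN2 (0.33, adjusted P = 0.0560) and ANKRD1 (0.36, adjusted P = 0.0712) were no longer called by edgeR. With it CNN1 stood at −0.019. Removal of the GC trend gave 6 other SRF targets lower and 4 other YAP targets higher, and turned TAGLN (−0.056), CNN1 (−0.16) and AMOTL2 (−0.12), none of them called. The other YAP targets called higher were 2 with at least 10 counts in every library and 2 by the DESeq2 Wald test. With single libraries left out, 1293 to 2112 genes were called higher and 1244 to 2283 lower. The target genes called higher ranged from 2 (without untreated replicate 1) to 4, the other SRF targets called lower from 1 (without untreated replicate 2) to 4, and the other YAP targets called higher from 1 to 3 (without IR replicate 3). CCN2 ranged from 0.24 to 0.29, ANKRD1 from 0.29 to 0.43, CNN1 from −0.021 (without IR replicate 2) to 0.076 and AMOTL2 from −0.0098 (without IR replicate 3) to 0.055. The cause of these shifts was not tested. Both groups use the numbers 1 to 3, but same-numbered libraries did not deviate together (correlations of −0.017, 0.007 and −0.052). With a replicate block 1725 genes were called higher and 1624 lower, and 4 target genes were called higher. Depth limits ACTG2, at 3 counts or fewer, and ACTA2 most.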
